A study of Mus musculus with 8 samples.

Results

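Blastocysts lacking Isca2 were compared with wild-type blastocysts across the whole transcriptome, taking every gene in the deposited tables as a member. Of 55471 gene identifiers, 13953 had enough reads to be tested, and 34952 of the 41518 others had 0 counts in all 5 libraries of the comparison. The 2 knockout libraries (KO, genotype given as Isca2 knockout) and the 3 wild-type libraries (WT) were made from blastocysts at embryonic day 4.5. A further 3 libraries, homozygous for the G77S form of Isca2, entered the fit through the low-count filter, the scaling and the shared estimate of spread. With the 5 WT and KO libraries alone, 12652 genes were tested. Females heterozygous for Isca2 were superovulated and mated with heterozygous males, so all embryos of that cross developed from oocytes of heterozygous mothers, and embryos were cultured before collection. The labels give no strain, no sex, no number of embryos per library and no description of the deleted part of the gene. Nothing in them ties the replicates of a genotype to different litters or cultures. The p-values therefore speak only of the spread seen among the libraries, and that spread may be technical.

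Isca2 is a mitochondrial A-type carrier protein that acts late in iron-sulfur cluster assembly, in the branch that supplies 4-iron clusters. Such clusters serve respiratory complexes and lipoic acid synthase, and the latter makes the lipoyl cofactor of the 2-oxoacid dehydrogenases. The blastocyst at this stage holds an outer trophectoderm, a pluripotent epiblast and a primitive endoderm that starts to lay down a basement membrane. In bulk libraries such as these, fewer cells of a type and less RNA per cell cannot be told apart.

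Depth was 17320268, 10790670 and 23842619 expected counts in WT replicates 1, 2 and 3, and 18467418 and 21146927 in KO replicates 1 and 2. The 10 most abundant genes held 10.2% to 10.9% of counts in WT and 11.5% to 13.2% in KO, and mitochondrial transcripts held 3.35% to 4.03% and 4.66% to 5.03%. Y-linked RNA summed to 0.39 CPM (TMM-scaled counts for a library of fixed size) in WT replicate 1 and to between 221 and 423 CPM in the 4 others. WT replicate 1 also lay farthest from the KO libraries on the first principal component (33.6% of variance), at -101.9 against 56.8 and 102.1. On the second (27.2%) it stood at 86.9, on the side of KO at 42.1 and 18.6, with WT replicates 2 and 3 at -88.2 and -59.4. Correlations between libraries were 0.878 to 0.909 within WT, 0.898 within KO and 0.846 to 0.89 between KO and WT, so these ranges overlapped. The part of these differences in the results was not tested, and the values without WT replicate 1 are given where they matter. Few markers of other cell types had enough reads to be tested. These were 2 of 12 cumulus genes, 2 of 12 blood genes, 0 of 10 fibroblast genes and 3 of 8 endothelial genes. Summed cumulus levels were 2.09 to 6.45 CPM in WT and 0.159 to 3.60 CPM in KO. Summed blood levels were 0.781 to 2.18 CPM in WT and 2.01 to 3.31 CPM in KO. Summed endothelial levels were 6.67 to 21.5 CPM in WT and 12.9 to 20.1 CPM in KO.

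Isca2 itself (chr12:84773251-84775088, plus strand, GRCm38) was measured at 86.9, 173 and 154 CPM in the WT libraries and at 4.84 and 6.20 CPM in the KO libraries. Both KO libraries lay far below every WT library, the direction their labels give. The fitted log2 fold change, KO minus WT, was -4.64 ± 0.41 (SE), with an adjusted p of 0.00387 in edgeR's quasi-likelihood test. Genes close to Isca2 did not share this change. Of 126 tested genes within 10 Mb on either side, 0 were called and 0 lay 2-fold apart between the groups, and their median log2 fold change was -0.12. Over all tested genes only 0.0788% were called higher and 0.043% lower, and 1.48% and 1.08% lay 2-fold apart. Few would therefore be found in any set of this size.

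Across all tested genes, 11 rose and 6 fell in KO embryos at an adjusted p under 0.05, which is 0.0788% and 0.043% of the 13953 genes. A wider set held in both KO libraries against all WT libraries by at least 2-fold, on CPM plus 1, and is called separated here. There were 207 separated genes higher in KO (1.48%) and 150 lower in KO (1.08%), and all 17 called genes were among them. The median log2 fold change of all tested genes was -0.06, and 46.5% of genes had a positive value. At an unadjusted p under 0.05, 870 genes were higher (6.24%) and 949 lower (6.8%). The calls depended on single libraries. Without KO replicate 2 none of the 17 was called by edgeR, with 639 genes higher and 727 lower at an unadjusted p under 0.05, and DESeq2 on all libraries called 359 higher and 426 lower. Without WT replicate 2, 1 gene was called in each direction, without WT replicate 1, 25 and 15, without WT replicate 3, 8 and 2, and without KO replicate 1, 29 and 13.

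**Figure D1:**
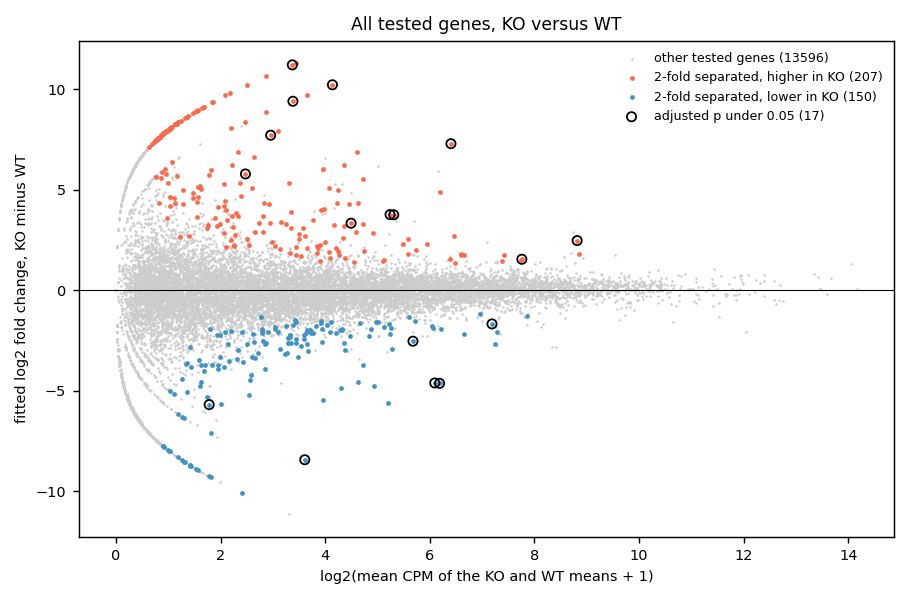
Fitted log2 fold change (KO minus WT, y axis) against log2 of the mean CPM of both groups plus 1 (x axis) for the 13953 tested genes. Red and blue points are the 207 higher and 150 lower separated genes, and black rings mark the 17 called genes, which lie at low as well as high levels.

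The separated genes were also grouped by their WT mean. WT values enter the separation rule too, so a difference in WT level between the higher and the lower set is partly built in. Of 3099 tested genes with a WT mean under 1 CPM, 130 were separated higher (4.19%), and the 2-fold rule on CPM plus 1 could find none lower there. Among 4220 genes with a WT mean of 10 to 100 CPM, 17 were separated higher (0.403%) and 70 lower (1.66%). Among 1798 genes at 100 CPM or more the counts were 4 and 11. In 61 of the 207 higher genes all WT libraries had 0 counts, and in 19 of the 150 lower genes both KO libraries had 0 counts. Protein-coding genes made up 188 of the higher and 141 of the lower set. The share separated higher was 0.62% of 813 tested genes on chromosome 1 and 3.09% of 486 on chromosome X, with 0 of 15 mitochondrial and 0 of 11 Y-linked genes.

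**Figure D2:**
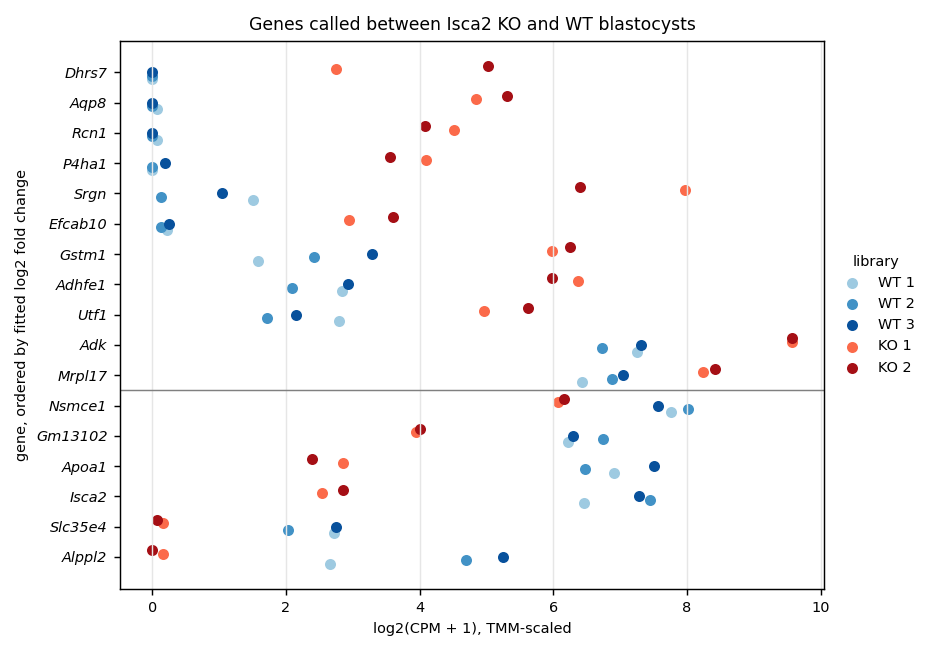
log2 of CPM plus 1 (x axis) in each library for the 17 called genes (y axis, ordered by fitted log2 fold change), WT replicates in blue and KO replicates in red. The grey line parts the 11 genes that rose from the 6 that fell, and the blue and red points of each gene do not overlap.

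Of the 11 genes that rose in the KO libraries, 5 were Adk, Adhfe1, Gstm1, Dhrs7 and Mrpl17. Adk, the adenosine kinase that clears the adenosine left by the methyl cycle (chr14:21052574-21448569), was at 152, 105 and 158 CPM in WT and at 761 and 761 CPM in KO, which is 2.46 ± 0.23 (SE) as log2 fold change (adjusted p = 0.00401). Its 2 KO values were nearly equal and stood above all WT values. Adhfe1, a mitochondrial hydroxyacid-oxoacid transhydrogenase (chr1:9547948-9580673), was at 6.13, 3.28 and 6.58 CPM in WT and at 81.7 and 62.3 CPM in KO. Its log2 fold change was 3.74 ± 0.43 (SE, adjusted p = 0.0124). Gstm1, a glutathione S-transferase (chr3:108012255-108017973), was at 2.01, 4.37 and 8.76 CPM in WT and at 62.0 and 74.9 CPM in KO, which is 3.75 ± 0.55 (SE) as log2 fold change (adjusted p = 0.0389). Dhrs7, a short-chain dehydrogenase (chr12:72650353-72664909), gave no count in any WT library and stood at 5.73 and 31.6 CPM in the KO pair. Against a floor of 3 counts over the WT group it was at least 320-fold higher (adjusted p = 0.0295), with the 2 KO libraries far apart. Mrpl17, a protein of the large mitochondrial ribosomal subunit (chr7:105803206-105811099), was at 85.5, 116 and 130 CPM in WT and at 300 and 340 CPM in KO, and it rose by 1.53 ± 0.24 on the log2 scale (SE, adjusted p = 0.0451).

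The other 6 genes that rose were Aqp8, Srgn, P4ha1, Rcn1, Utf1 and Efcab10. Aqp8, a water and peroxide channel also listed among primitive endoderm markers (chr7:123462291-123468004), had 1 count over the WT group and 27.6 and 38.7 CPM in KO. The ratio was 1659, and the 95% interval from counting error ran from 297 to 65590 (adjusted p = 0.00801). Srgn, the secretory granule proteoglycan serglycin (chr10:62493833-62527451), was at 1.84, 0.0993 and 1.07 CPM in WT and at 249 and 83.0 CPM in KO, which is 7.28 ± 1.09 (SE) as log2 fold change (adjusted p = 0.0397). KO replicate 1 was the higher of the pair, and both were well above WT. P4ha1, the catalytic subunit of collagen prolyl 4-hydroxylase (chr10:59323296-59373304), had 3 counts over the WT group and 16.1 and 10.8 CPM in KO. Its KO to WT ratio of 220 had counting bounds of 74.9 and 1072 (adjusted p = 0.0261). Rcn1, a calcium-binding protein of the endoplasmic reticulum (chr2:105386291-105399319), gave 1 count over the WT group and stood at 21.8 and 15.8 CPM in KO, a ratio of 925 between bounds of 166 and 36590 (adjusted p = 0.0488). Intervals and floors cover counting error only, since amplified reads without molecular identifiers are not independent molecules. Utf1, a chromatin-associated factor of pluripotent cells (chr7:139943789-139945112), was at 5.91, 2.28 and 3.43 CPM in WT and at 30.2 and 48.2 CPM in KO (log2 fold change 3.33 ± 0.46, SE, adjusted p = 0.0295). Efcab10, a gene with an EF-hand domain (chr12:33394854-33401267), was at 0.0993 to 0.185 CPM in WT and at 6.73 and 11.2 CPM in KO (5.78 ± 0.77 on the log2 scale, adjusted p = 0.0271).

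Besides Isca2, 5 genes fell. Apoa1, the main protein of high-density lipoprotein (chr9:46228580-46230466), was at 120, 88.2 and 180 CPM in WT and at 6.26 and 4.24 CPM in KO, and fell by 4.62 ± 0.65 on the log2 scale (SE, adjusted p = 0.0295). Nsmce1, a subunit of the SMC5/6 complex (chr7:125467640-125491596), was at 216, 259 and 188 CPM in WT and at 66.4 and 70.8 CPM in KO, and fell by 1.69 ± 0.24 (adjusted p = 0.0343). Gm13102, a predicted gene (chr4:144106474-144110101), was at 73.2, 106 and 77.3 CPM in WT and at 14.35 and 15 CPM in KO, and fell by 2.54 ± 0.32 (adjusted p = 0.0232). The KO pair of each of these 3 genes agreed closely and lay below the lowest WT library. Alppl2, an alkaline phosphatase of the early embryo (chr1:87086694-87089928), was at 5.30, 24.8 and 36.8 CPM in WT and had 2 counts over the KO group. The WT level was 412 times the KO level, between counting bounds of 114 and 3403 (adjusted p = 0.0397). Slc35e4, a putative solute carrier (chr11:3907021-3914664), was at 5.58, 3.08 and 5.70 CPM in WT with 3 counts over the KO group, a WT to KO ratio of 61.1 between bounds of 20.7 and 298 (adjusted p = 0.0416).

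The lineage lists differed in how their members lay. Of 30 primitive endoderm genes 23 were tested, and 19 had a positive and 4 a negative fold change. Their median log2 fold change was 2.68, or 2.47 with the 6 genes at 3 or fewer counts in a group set to their bound or counting ratio, beside -0.06 for all genes. Of the 23, 7 were separated higher and 1 lower (1.48% and 1.08% of all tested genes). Above every WT library lay 15, against 13.1% of all tested genes in that position. Leaving out 1 library at a time gave medians of 2.17 to 3.29, and log2 of TPM plus 1, a scale that shrinks low genes, gave 0.39. With the 5 WT and KO libraries alone, 20 members were tested and the median was 2.05. Members enter the test only with reads in at least some libraries, so a low gene passed here mainly where it was high, and these counts cover the tested members alone. The summed level of the list, which Dab2 dominates, was 1645, 1462 and 1263 CPM in WT and 2216 and 1398 CPM in KO, so the groups overlapped on that measure.

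Among the regulators of primitive endoderm, Gata6, the factor that starts the lineage, was at 23.5, 17.8 and 18.7 CPM in WT and at 26.8 and 28.0 CPM in KO, with an adjusted p of 0.606. Sox17, a later endoderm factor, gave 0 counts over the WT group, and the KO pair stood at 1.06 and 0.901 CPM. That is at least 16.2-fold higher, but with an adjusted p of 0.342. Gata4, which acts with Gata6, had 0 counts in the 3 WT libraries and 43 and 12 counts in the KO libraries, too few to be tested. Pdgfra, the receptor that marks primitive endoderm cells, was at 0.0558, 0 and 0 CPM in WT and at 0.413 and 3.92 CPM in KO (adjusted p = 0.155). All 4 were higher in both KO libraries than in any WT library, at low levels in 3 of them, and none of the 3 that were tested passed.

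Basement membrane genes went in both directions. Col4a1, the alpha 1 chain of type IV collagen, was at 0.279, 0 and 0 CPM in WT and at 14.6 and 6.15 CPM in KO (adjusted p = 0.0841). Its partner chain Col4a2 was at 0.558, 0 and 0 CPM in WT and at 10.3 and 6.09 CPM in KO (adjusted p = 0.161). Lamb1, the laminin beta 1 chain, was at 5.58, 4.57 and 5.24 CPM in WT and at 24.1 and 19.9 CPM in KO (adjusted p = 0.106). With P4ha1 and Sparc, a collagen-binding glycoprotein at 24.9, 5.76 and 39.9 CPM in WT and 216 and 86.1 CPM in KO, these made 5 separated higher genes of the 21 tested, beside 1.48% of all tested genes. On the other side Nid2, the linker nidogen 2, was at 18.5, 13.8 and 9.17 CPM in WT and at 1.77 and 1.85 CPM in KO (adjusted p = 0.0922). Nid1, its homologue, was at 29.1, 35.1 and 34.8 CPM in WT and at 15.2 and 12.8 CPM in KO (adjusted p = 0.23). The integrin chain Itga6, a laminin receptor, was at 71.7, 51.7 and 42.4 CPM in WT and at 15.4 and 21.5 CPM in KO (adjusted p = 0.168). Col4a1 and Col4a2 are also on the primitive endoderm list, so the counts of these lists share genes and are not separate. The median of the 21 was 0.55, with 12 positive and 9 negative members. It was 0.12 without WT replicate 3, 0.04 on log2 of TPM plus 1 and 1.33 with only the libraries that hold Y-linked RNA.

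**Figure D3:**
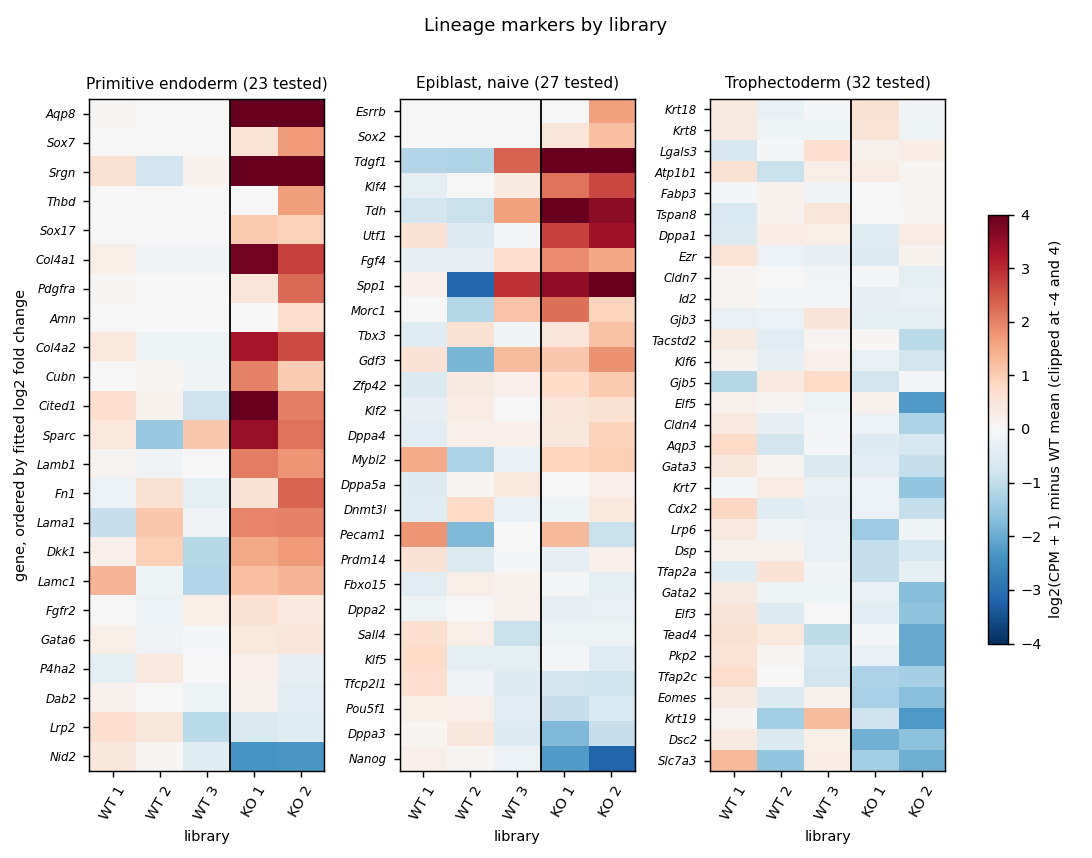
log2 of CPM plus 1 in each library minus the WT mean (colour, clipped at -4 and 4) for the tested primitive endoderm (23), naive epiblast (27) and trophectoderm (32) genes, each panel ordered by fitted log2 fold change. Red fills the KO columns of most primitive endoderm genes, the epiblast panel splits, and most trophectoderm rows are pale blue in KO.

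Epiblast genes split. Nanog, a core factor of naive pluripotency, was at 297, 266 and 221 CPM in WT and at 53.4 and 27.4 CPM in KO, a log2 fold change of -2.69 ± 0.44 (SE) with an adjusted p of 0.0529. Both KO values lay far below the lowest WT value. Tdgf1, the Nodal co-receptor cripto, was at 0.223, 0.199 and 13.3 CPM in WT and at 120 and 158 CPM in KO (adjusted p = 0.155). Tdh, the threonine dehydrogenase of mouse pluripotent cells, was at 0.112, 0 and 4.77 CPM in WT and at 31.7 and 21.3 CPM in KO (adjusted p = 0.272). Klf4, another naive factor, was at 0, 0.298 and 0.649 CPM in WT and at 4.78 and 7.26 CPM in KO (adjusted p = 0.205). With Utf1, these last 3 were the 4 separated higher genes of the list, and Nanog was the only one separated lower. Of all tested genes, 1.48% were separated higher and 1.08% lower. Pou5f1, which encodes Oct4, was at 7.58, 7.45 and 4.49 CPM in WT and at 2.89 and 3.87 CPM in KO (adjusted p = 0.413). Sox2 gave no count in WT and 0.413 and 1.32 CPM in the KO pair (adjusted p = 0.232). Zfp42, which encodes Rex1, was at 80.5, 153 and 140 CPM in WT and at 199 and 249 CPM in KO (adjusted p = 0.238). Of 27 tested members 17 were positive and 10 negative, with a median of 0.68 that was 0.05 under a stricter filter and 0.22 on log2 of TPM plus 1. Tcl1, an Akt co-activator of early embryos and stem cells outside this list, was at 1.28, 2.68 and 2.73 CPM in WT and at 34.2 and 56.5 CPM in KO (adjusted p = 0.0581).

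Signalling genes around these lineages showed the same mixture. Id3, an inhibitor of basic helix-loop-helix factors induced by BMP, was at 1.004, 0.0993 and 3.85 CPM in WT and at 30.6 and 25.4 CPM in KO (adjusted p = 0.138). Spry2, a feedback inhibitor of FGF signalling, was at 7.86, 0.496 and 5.47 CPM in WT and at 38.3 and 54.6 CPM in KO (adjusted p = 0.124). Lif, the cytokine that sustains naive pluripotency, was at 15.7, 12.0 and 12.2 CPM in WT and at 5.49 and 2.17 CPM in KO (adjusted p = 0.229). Of 21 tested FGF, LIF, BMP and Nodal genes, 3 were separated higher and 1 lower (1.48% and 1.08% of all tested genes). Tdgf1, already counted with the epiblast genes, was 1 of these 3. The median of the 21 was 0.57, and it was 0.30 without WT replicate 3.

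Trophectoderm genes were mostly lower by a small amount. All 32 listed genes were tested, 27 had a negative and 5 a positive fold change, and the median was -0.71, with a range of -0.80 to -0.39 when 1 library was left out. None was called, 7 lay below every WT library and 0 above every one (12.5% and 13.1% of all tested genes). Trophectoderm gave the value nearest 0 without KO replicate 2, and gave -0.53 without WT replicate 1, the library with almost no Y-linked RNA. Dsc2, a desmosomal cadherin, was at 37.6, 19.3 and 34.1 CPM in WT and at 6.97 and 8.74 CPM in KO (log2 fold change -1.95 ± 0.45, SE, adjusted p = 0.127). It was the only member separated lower, beside 1.08% of all tested genes. Eomes, a factor of trophoblast stem cells, was at 41.9, 22.5 and 36.5 CPM in WT and at 12.6 and 9.54 CPM in KO (adjusted p = 0.155). Tfap2c, a further trophoblast factor, was at 76.0, 46.6 and 27.0 CPM in WT and at 19.1 and 17.5 CPM in KO (adjusted p = 0.193). Cdx2, which specifies the lineage, was at 13.8, 4.96 and 5.65 CPM in WT and at 6.08 and 3.34 CPM in KO, so the groups overlapped. Gata3 was at 156, 122 and 76.1 CPM in WT and at 82.9 and 58.0 CPM in KO, also with overlap. Krt8, an abundant keratin, was at 3231, 2227 and 2229 CPM in WT and at 3660 and 2169 CPM in KO. Its partner Krt18 was at 7666, 4839 and 5660 CPM in WT and at 9009 and 5551 CPM in KO, and the groups overlapped in both. The summed level of the list was 39880 to 41600 CPM in WT and 40370 to 41240 CPM in KO.

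Genes of the blastocyst epithelium outside the trophectoderm factors lay the same way. Of 25 tested transport and junction genes, 18 were negative, 9 lay below every WT library and 2 above every one (12.5% and 13.1% of all tested genes), with a median of -0.41. Cdh1, E-cadherin, was at 101, 68.7 and 65.5 CPM in WT and at 41.0 and 54.1 CPM in KO (adjusted p = 0.347). Cldn6, a tight-junction claudin, was at 21.5, 20.3 and 35.7 CPM in WT and at 13.2 and 11.2 CPM in KO (adjusted p = 0.293). Pkp4, an armadillo protein of cell junctions named for its gap between groups, was at 36.0, 30.2 and 35.1 CPM in WT and at 6.91 and 3.97 CPM in KO, which is -2.63 ± 0.44 (SE) as log2 fold change (adjusted p = 0.0529). Aqp8 was the 1 called member of the junction and transport list and went against its median.

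Most chaperones and folding enzymes of the endoplasmic reticulum had negative fold changes, but 0 of 24 were called lower and Rcn1 was called higher. All 24 genes of the list were tested, 19 had a negative and 5 a positive fold change, the median was -0.56, and leaving out 1 library gave -0.75 to -0.33. With only the libraries that hold Y-linked RNA the endoplasmic reticulum median was -0.23. At an unadjusted p under 0.05, 8 members were lower and 2 higher, and 11 lay below every WT library, beside 12.5% of all tested genes. Manf, a secreted stress-induced factor, was at 382, 280 and 325 CPM in WT and at 134 and 132 CPM in KO, which is -1.31 ± 0.25 (SE) as log2 fold change (adjusted p = 0.0838). Hspa5, Hsp90b1, Creld2 and Rcn2 are given here because of their values. Hspa5, the main luminal chaperone BiP, was at 587, 381 and 512 CPM in WT and at 255 and 198 CPM in KO (adjusted p = 0.138). Hsp90b1, its partner Grp94, was at 240, 223 and 277 CPM in WT and at 141 and 104 CPM in KO (adjusted p = 0.206). Creld2, an isomerase-like stress protein, was at 77.6, 68.5 and 81.8 CPM in WT and at 38.1 and 34.0 CPM in KO (adjusted p = 0.182). Every KO value of Manf, Hspa5, Hsp90b1 and Creld2 lay below every WT value, and none of the 4 was called. Of the list, 2 members lay above every WT library, the calcium-binding reticulocalbins Rcn1, called higher, and Rcn2, at 104, 46.5 and 56.0 CPM in WT and 161 and 130 CPM in KO (adjusted p = 0.234). Ddit3 and Atf4, factors of the stress response, overlapped between groups, with Ddit3 at 89.7, 187 and 230 CPM in WT and 235 and 167 CPM in KO. Atf3, a further member of the integrated stress response list, gave 0 counts over the WT group and stood at 5.14 and 2.01 CPM in KO (adjusted p = 0.206). Of 24 tested members of that list 11 were positive and 13 negative, with a median of -0.13. Atf3 was the only 1 separated higher and 0 were separated lower (1.48% and 1.08% of all tested genes).

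The promoters of the list were searched for the endoplasmic reticulum stress element, CCAAT followed after 9 bases by CCACG, on both strands in the 250 bases before the RefSeq start (GRCm38.p6). Of 24 list members 21 had a promoter in the table (87.5%), 2 of them by an older symbol. The element was in 8 of the 21 (38.1%) and in 37 of 32817 promoter windows of the same length (0.113%). That contrast describes the genes put on the list and does not bear on the KO libraries. Of the 9 with a promoter among the 11 members below every WT library, 5 held the element (55.6%, beside 38.1% of all 21). The difference between these shares was not tested. Matches from these 5 promoters are shown to let the shared ends and the differing spacers be compared, with the 2 conserved ends in capitals and each read from CCAAT.
Hspa5: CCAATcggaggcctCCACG
Hsp90b1, distal: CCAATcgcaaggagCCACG
Hsp90b1, proximal: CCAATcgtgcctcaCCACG
Pdia6: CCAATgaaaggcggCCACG
Calr: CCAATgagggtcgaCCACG
Creld2: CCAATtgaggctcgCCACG
The Hspa5 match lay at chr2:34772025-34772043 on the plus strand, its first base 65 bases before the start, and the Creld2 match at chr15:88819520-88819538 on the minus strand. The Hsp90b1 matches lay at chr10:86705638-86705656 (minus strand) and chr10:86705533-86705551 (plus strand). Those of Pdia6 and Calr lay at chr12:17266491-17266509 and chr8:84847075-84847093, both on the plus strand. A match is a description of the letters in the window. The element was also in the promoters of Dnajc3, Canx and Ero1lb, whose KO and WT libraries overlapped.

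**Figure D4:**
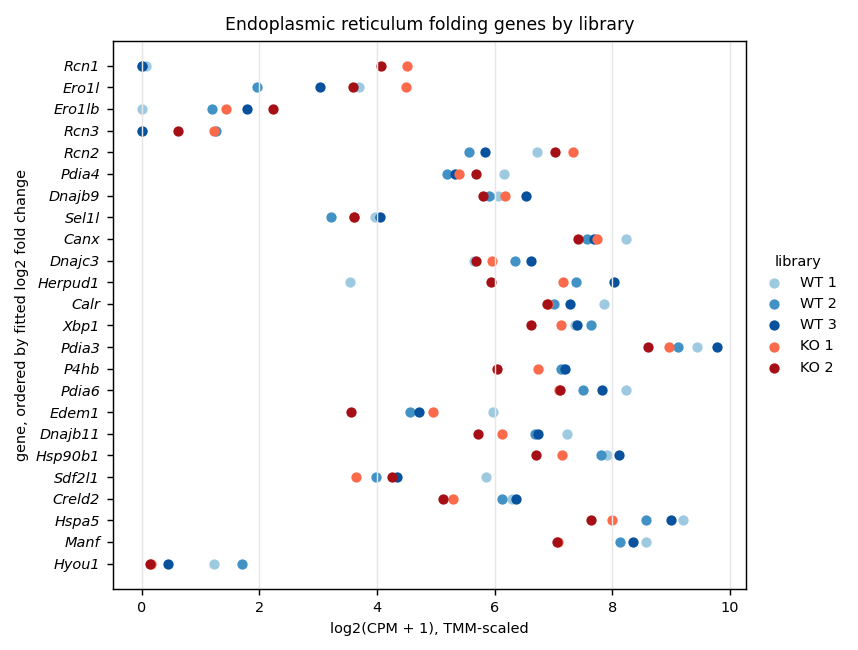
log2 of CPM plus 1 (x axis) in each library for the 24 endoplasmic reticulum folding genes (y axis, ordered by fitted log2 fold change), WT in blue and KO in red. Red points lie left of all blue points in 11 genes, Manf and Hspa5 among them, and right of all blue points in Rcn1 and Rcn2.

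Transcripts of the mitochondrial genome summed higher in KO. The 13 mitochondrial messages summed to 29320, 39890 and 40350 CPM in WT and to 51650 and 47720 CPM in KO, so both KO libraries lay above all WT libraries. Of the 13, 11 were positive with a median of 0.25, which was -0.16 with a GC and length correction, and 0 were called. Above every WT library lay 4 of the 13, beside 13.1% of all tested genes, and 0 lay below every one. Among them mt-Co1, a core subunit of complex IV, was at 6606, 9022 and 7227 CPM in WT and at 14730 and 11500 CPM in KO (adjusted p = 0.185). The message mt-Cytb overlapped between groups, at 8538, 12580 and 11970 CPM in WT and 13430 and 9570 CPM in KO (adjusted p = 0.957). Of 41 tested subunits and assembly factors of complexes I and II, 33 were positive with a median of 0.27 (0.03 to 0.46 when 1 library was left out). None of the 41 was separated, beside 1.48% higher and 1.08% lower of all tested genes. Of 78 mitochondrial ribosomal protein genes 61 were positive, and Mrpl17 was the only one called or separated. Over all tested genes 0.0788% were called higher and 1.48% separated higher, so a single separated gene is no excess. The median of the 78 was 0.18, and 0.05 without WT replicate 1, and 39 were positive on log2 of TPM plus 1. Cytosolic ribosomal protein genes showed a similar shift, with 72 of 77 positive and a median of 0.25. That median was 0.08 with the GC and length correction, 0.08 on log2 of TPM plus 1 and 0.15 without WT replicate 1. Pseudogenes, a class with many copies of ribosomal protein genes, held 1.87% to 2.34% of counts in WT and 2.92% to 3.11% in KO. The part of that difference in these medians was not tested. In the iron-sulfur assembly list without its target, none was called. Nfu1, a carrier that acts beside Isca2, was at 198, 300 and 276 CPM in WT and at 446 and 417 CPM in KO (adjusted p = 0.204). Isca1, the partner of Isca2, was at 165, 268 and 231 CPM in WT and at 212 and 235 CPM in KO, and the groups overlapped.

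Enzymes that depend on the lipoyl cofactor did not move as one. Dbt, the lipoyl-bearing core of the branched-chain dehydrogenase, was at 13.5, 10.1 and 8.52 CPM in WT and at 35.7 and 46.3 CPM in KO (adjusted p = 0.0838). Bckdhb, the E1 beta chain of the same complex, was at 25.6, 12.6 and 13.4 CPM in WT and at 62.4 and 52.1 CPM in KO (adjusted p = 0.124). Ogdh, the E1 enzyme of the 2-oxoglutarate complex, was at 49.3, 49.1 and 34.4 CPM in WT and at 26.8 and 25.2 CPM in KO (adjusted p = 0.359). Lias, lipoic acid synthase, was at 59.95, 120 and 122 CPM in WT and at 93.7 and 125 CPM in KO, with overlap. The 25 tested genes of the cycle and of lipoylation had a median of 0.24. Dbt was the only separated one, beside 1.48% higher and 1.08% lower of all tested genes.

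Separated genes were found in several other metabolic lists. Of 21 tested dehydrogenases of alcohols and aldehydes, 16 were positive, 4 were separated higher and 0 lower (1.48% and 1.08% of all tested genes), and Adhfe1 and Dhrs7 were called. Aldh7a1, which oxidises lysine-derived and other aldehydes, was at 7.70, 8.34 and 6.21 CPM in WT and at 35.3 and 22.04 CPM in KO (adjusted p = 0.119). Cth, which makes cysteine from cystathionine, was at 10.5, 28.1 and 24.7 CPM in WT and at 83.7 and 81.8 CPM in KO (adjusted p = 0.107). Cpt1a, which admits long-chain fatty acids to mitochondria, was at 39.2, 11.7 and 9.50 CPM in WT and at 2.07 and 4.08 CPM in KO (adjusted p = 0.174). Ldha, lactate dehydrogenase A, was at 4.74, 3.28 and 1.07 CPM in WT and at 19.1 and 19.5 CPM in KO (adjusted p = 0.272). Pfkm, also on the glycolysis list, lay the other way at 1.06, 3.18 and 5.79 CPM in WT with 0 counts over the KO group (adjusted p = 0.124). Of 24 tested glycolysis genes, Ldha was the only 1 separated higher and Pfkm the only 1 separated lower. Apoe, a lipid carrier, was at 255, 226 and 148 CPM in WT and at 652 and 778 CPM in KO (adjusted p = 0.155), opposite in direction to Apoa1. Apolipoprotein and lipid carrier genes had a median of 1.41 over 10 tested, and of 0.74 under a stricter filter. Of the 10, 3 were separated higher and only Apoa1 lower (1.48% and 1.08% of all tested genes).

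Iron and methylation genes gave no call apart from P4ha1, which is also an iron and 2-oxoglutarate dioxygenase. Ftl1, the ferritin light chain, was at 15980, 6650 and 7014 CPM in WT and at 30830 and 17630 CPM in KO (adjusted p = 0.285). Fth1, the heavy chain, was at 1186, 1204 and 1148 CPM in WT and at 1278 and 1114 CPM in KO. Slc40a1, the iron exporter ferroportin, was at 50.6, 92.3 and 157 CPM in WT and at 38.0 and 2.65 CPM in KO (adjusted p = 0.309). Ferritin chains have many pseudogene copies, so reads of Ftl1 and Fth1 may be split between loci. Tet2, a methylcytosine dioxygenase, was at 35.7, 38.2 and 52.5 CPM in WT and at 24.8 and 10.7 CPM in KO (adjusted p = 0.238), while Tet1 and Tet3 overlapped between groups. Dppa3, which protects methylation patterns in the early embryo, was at 4262, 5585 and 2813 CPM in WT and at 1197 and 2139 CPM in KO (adjusted p = 0.148). Zfp57, which protects imprints from demethylation, was at 0, 3.28 and 1.02 CPM in WT and at 7.56 and 13.5 CPM in KO (adjusted p = 0.338). It was the only separated member of the methylation list, beside 1.48% higher and 1.08% lower of all tested genes. The median of 26 tested methylation genes was -0.04, and that of 19 iron uptake, storage and sensing genes was 0.02.

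**Figure D5:**
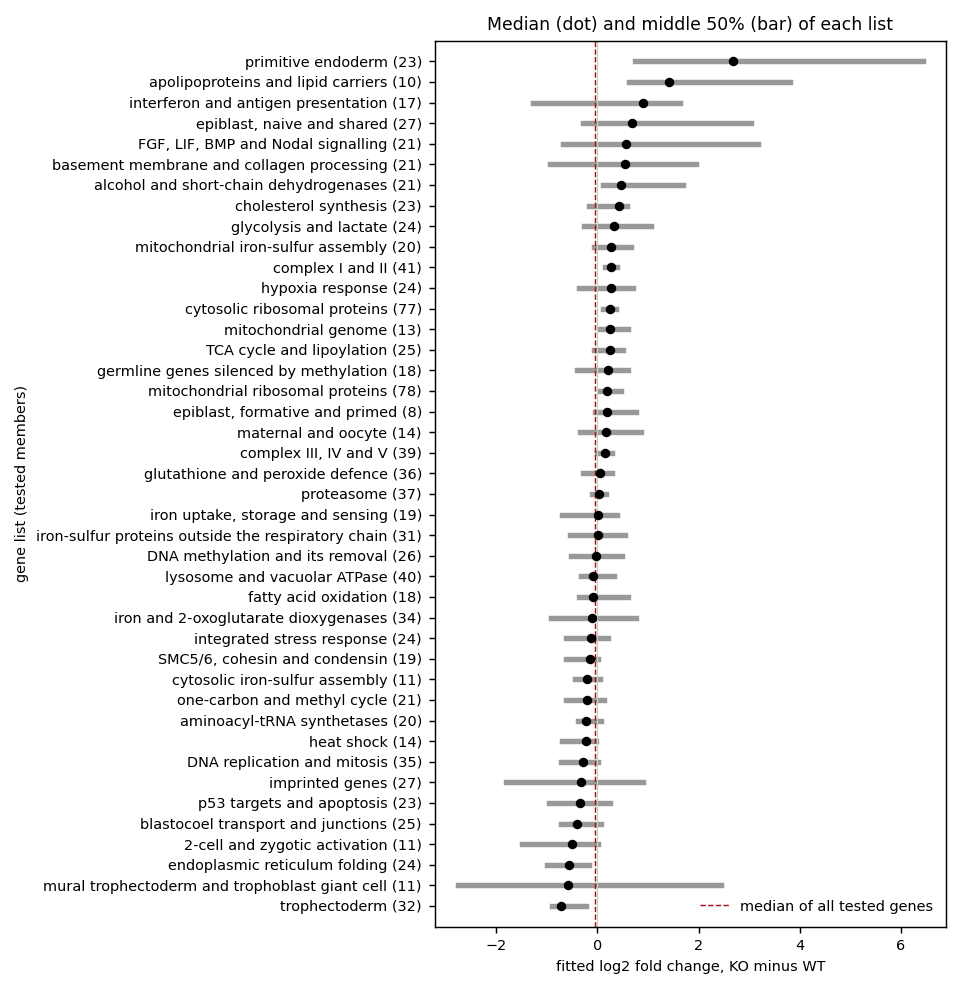
Median (dot) and middle 50% (bar) of the fitted log2 fold changes of the tested members of each list with 5 or more, with the number tested in brackets and the median of all tested genes as a dashed line. The primitive endoderm list sits at 2.68 and the trophectoderm list at -0.71, and the dashed line lies at -0.06.

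Genes of growth control lay in both directions, without a call. Mdm2, the ubiquitin ligase that restrains p53, was at 116, 105 and 126 CPM in WT and at 37.7 and 21.8 CPM in KO, which is -1.96 ± 0.32 (SE) as log2 fold change (adjusted p = 0.0529). Wee1, the kinase that delays entry to mitosis, was at 14.3, 18.2 and 23.2 CPM in WT and at 3.84 and 3.02 CPM in KO (adjusted p = 0.119). Gadd45g, a stress and growth arrest gene, was at 20.7, 17.97 and 24.3 CPM in WT and at 4.37 and 0.742 CPM in KO (adjusted p = 0.135). Pmaip1, which encodes the death-promoting protein Noxa, was on the other side at 3.74, 5.26 and 5.19 CPM in WT and at 32.0 and 11.9 CPM in KO (adjusted p = 0.119). Of 23 tested p53 and apoptosis genes 16 were negative, and their median was -0.34 but became 0.18 without KO replicate 2.

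Some interferon-linked genes were among those with the widest gap above WT. Ddx58, the viral RNA sensor RIG-I, gave 1 count over the WT group and stood at 11.9 and 13.4 CPM in KO, a ratio of 629 between counting bounds of 112 and 24890 (adjusted p = 0.0581). Ubd, a ubiquitin-like modifier, gave 3 counts over the WT group and 20.1 and 10.1 CPM in KO (adjusted p = 0.0838). Ube2l6, an enzyme that conjugates Isg15, was at 1.90, 0.0993 and 1.16 CPM in WT and at 15.7 and 53.8 CPM in KO (adjusted p = 0.0641). Psmb9, an immunoproteasome subunit, lay the other way at 19.7, 15.2 and 22.8 CPM in WT and 4.61 and 4.98 CPM in KO (adjusted p = 0.155). Of 30 listed interferon and antigen presentation genes 17 were tested, and these split 9 positive to 8 negative. Isg15, Ifit1, Ifit2, Ifit3, Mx1, Mx2, Oasl2 and Usp18 were too low to test, with 0 counts in both KO libraries. Irf1, also not tested, had 0 counts in each WT library and 33 and 1 counts in KO.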

How the data were processed

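Per the file headers, the authors deposited 1 RSEM gene table per library, with expected counts and TPM, which RSEM scales within a library, and gene lengths. Tools listed in the submitters' processing notes are STAR 2.6.1c, RSEM 1.3.1, Trim Galore 0.4.5 and DESeq2 1.42.1, with mm10 as build. The annotation release is not given in the sources used here. Expected counts were rounded to whole numbers. GENCODE for GRCm38 supplied symbols and positions and matched 55230 identifiers (99.6%).

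All 8 libraries were fitted with edgeR 4.0.16 in R 4.3.3 (a mean per genotype, TMM scaling, the package's low-count filter, quasi-likelihood F test, Benjamini-Hochberg adjustment), and all adjusted p-values are from this fit unless another tool is named. Levels are TMM-scaled CPM. A standard error is the log2 fold change divided by the square root of F. In a library, 3 counts equal 0.139 to 0.298 CPM. The steps were tested on simulated data. Replicate numbers did not pair libraries (correlations of 0.071 and 0.026 for equal numbers).

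The genes named are Isca2, the called genes, up to 12 others per direction with the largest gap between groups, separated or most abundant list members, and fixed regulators. Others (Nid1, Itga6, Sparc, Lamb1, Cdh1, Krt8, Krt18, the chaperones other than Manf, Rcn2, Gsta1, Nfu1, Isca1, Bckdhb, Ogdh and Lias) were chosen after their values were seen. The lists and members were chosen with earlier results of these data known, so no count is independent support. Alternatives were other filters and scalings, limma 3.58.1 on log2 of TPM plus 1, DESeq2 1.42.0, a GC and length correction, fewer libraries and a replicate block.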

Additional observations from a re-analysis of the deposited data

How the results depend on the processing

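The counts of called genes, higher and lower, were 8 and 3 with only the 5 libraries (5 and 2 of them among the 11 and 6), 359 and 426 with DESeq2, 57 and 38 with limma on TPM, 285 and 262 with no filter, 34 and 26 with the stricter filter, and 21 and 11 with the libraries that hold Y-linked RNA. With a replicate block they were 4 and 4, of which 3 and 2 were among the reported ones. The numbers mark no known pairing. Leaving out 1 library gave 0 to 29 higher and 0 to 15 lower. The separated counts were 460 and 427 at 1.5 times, 111 higher on TPM, 110 higher with the stricter filter and 378 and 298 with the Y-linked libraries, and leaving out 1 library gave 302 to 642 and 298 to 668. Fewer libraries make separation easier. The other causes were not tested. Isca2 and Adk were called under 13 of 14 alternatives, Slc35e4 and Mrpl17 under 6. Among lists with a median of at least 0.25 in size, the sign changed for mural trophectoderm with the replicate block (0.18), 2-cell genes without 1 library (-1.46 to 0.11), glycolysis on TPM (-0.09) and with the stricter filter (-0.05), hypoxia on TPM (-0.09) and without 1 library (-0.12 to 0.29), p53 genes without 1 library (-0.92 to 0.18) and interferon genes with the stricter filter (-0.05). Smaller medians also changed sign over the alternatives, as for maternal (-2.40 to 2.49), formative epiblast (-0.73 to 0.98), mitochondrial genome (-0.16 to 0.64), aminoacyl-tRNA synthetase (-0.40 to 0.06) and one-carbon genes (-0.47 to 0.19). The median of all genes was -0.17 without KO replicate 2, -0.11 without KO replicate 1, and -0.12 on TPM. With 2 KO libraries and 3 WT libraries at this spread (biological coefficient of variation 0.655), a gene with no call may still differ several-fold.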

Other observations

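A few genes outside the lists had some of the widest gaps between the groups. Lrrc34, a leucine-rich repeat gene of pluripotent cells, was at 1.78, 0 and 1.297 CPM in WT and at 53.5 and 45.9 CPM in KO (adjusted p = 0.155). Lrrc2, another leucine-rich repeat gene, was at 1.12, 0 and 0 CPM in WT and at 27.4 and 64.8 CPM in KO (adjusted p = 0.0832). Car2, a carbonic anhydrase, was at 1.23, 0 and 0 CPM in WT and at 25.6 and 31.3 CPM in KO (adjusted p = 0.128). Nup62cl, on no list, was at 0, 0 and 1.39 CPM in WT and at 21.7 and 55.6 CPM in KO (adjusted p = 0.174). In the other direction Dmrtc1c2 was at 120, 34.5 and 16.1 CPM in WT and at 3.07 and 1.06 CPM in KO (adjusted p = 0.0838). Klk7, a kallikrein protease, was at 46.6, 90.8 and 61.6 CPM in WT and at 4.25 and 13.2 CPM in KO (adjusted p = 0.21). Atp12a, a proton-potassium pump, was at 56.4, 23.4 and 25.3 CPM in WT and at 7.15 and 1.59 CPM in KO (adjusted p = 0.138).

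Of 25 listed genes of the totipotent 2-cell program 11 were tested, and 12 had 0 counts in all 5 libraries. Of the 11 tested, 8 were negative and 3 positive, and 4 lay below every WT library, beside 12.5% of all tested genes. Among the 11 tested genes 0 were called or separated, and of all tested genes 1.48% were separated higher and 1.08% lower. The median of these 11 genes, -0.51, was 0.11 without WT replicate 3 and -0.05 without KO replicate 2. Calcoco2, an autophagy receptor, was at 1596, 2576 and 3055 CPM in WT and at 962 and 620 CPM in KO (adjusted p = 0.0832). Pramel7, a regulator of DNA methylation in the inner cell mass, was at 508, 709 and 646 CPM in WT and at 339 and 372 CPM in KO (adjusted p = 0.182). In both genes the 2 KO libraries lay below all WT libraries. Glutathione transferases went in both directions, with Gstm1 higher in KO and Gsta1 at 205, 614 and 868 CPM in WT and at 138 and 22.2 CPM in KO (adjusted p = 0.185).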
